A study of Mus musculus with 12 samples.

Results

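The 39 genes described here are type I interferon-stimulated genes, taken from the deposited table of raw counts by gene symbol. All 39 were found among its 45664 rows, and all 39 passed the filter on low counts that left 20691 genes for testing. On the wild-type libraries alone 37 of them would have passed. Oasl1 and Mx1 would not, so both entered the test through the knockout libraries. The table holds bulk RNA sequencing of whole embryonic mouse hearts, 12 libraries of 1 embryo each. Stages are given as embryonic days, E13.5 and E14.5. At E13.5 there were 3 wild-type (WT) hearts, replicates 1, 4 and 2, and 3 Ino80-disrupted (KO) hearts, replicates 3, 5 and 7, all from litter 1. At E14.5 there were 3 WT hearts, replicates 8 and 7 of litter 2 and replicate 7.2 of litter 3, and 3 KO hearts, replicates 2 and 4 of litter 2 and replicate 1 of litter 3. The KO is named in the labels as a disruption of Ino80 in endothelium with Tie2, a driver that is also active in the blood cell lineage. The strain, the deleted part of Ino80 and whether WT embryos carried a Cre or floxed allele are not stated in any source used here. Every E13.5 heart shared a litter that no E14.5 heart came from, so stage and litter cannot be told apart.

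Type I interferons are secreted proteins that cells release when they sense viral or misplaced nucleic acid. They bind the receptor formed by Ifnar1 and Ifnar2, which activates the kinases Jak1 and Tyk2. The kinases phosphorylate Stat2, which acts with Irf9 in a complex that binds interferon-stimulated response elements (ISRE) in promoters and switches on a broad set of genes that restrict viruses. Many of these genes carry a low tonic level without infection.

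The promoters of 7 members are shown, of 14 in which the core of the element that is known to switch on the family was found. The choice is not even, since it holds all 4 of the 14 that rose in the averaged test below. The promoters come from RefSeq for GRCm38.p6 and run 5′ to 3′ on the strand of the gene. Each holds 300 bases, of which 250 precede the transcription start. Capitals mark each match to the ISRE core, which reads GAAA, any 2 bases and GAAA again, searched on both strands, so that a match on the opposite strand reads as its reverse complement.
Ifit1, chr19:34640639-34640938, plus strand: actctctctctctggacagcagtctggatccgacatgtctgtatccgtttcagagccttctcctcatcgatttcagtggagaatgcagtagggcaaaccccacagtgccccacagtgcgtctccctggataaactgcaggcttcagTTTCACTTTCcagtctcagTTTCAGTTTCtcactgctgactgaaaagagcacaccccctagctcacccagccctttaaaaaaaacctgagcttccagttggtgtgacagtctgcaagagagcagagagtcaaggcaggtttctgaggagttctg
Isg15, chr4:156200769-156201068, minus strand: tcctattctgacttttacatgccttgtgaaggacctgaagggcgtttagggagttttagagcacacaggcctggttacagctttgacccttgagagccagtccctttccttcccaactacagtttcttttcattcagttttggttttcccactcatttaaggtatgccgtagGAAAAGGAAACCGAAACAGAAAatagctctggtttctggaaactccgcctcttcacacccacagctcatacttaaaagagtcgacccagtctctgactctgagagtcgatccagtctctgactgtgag
Bst2, chr8:71537423-71537722, minus strand: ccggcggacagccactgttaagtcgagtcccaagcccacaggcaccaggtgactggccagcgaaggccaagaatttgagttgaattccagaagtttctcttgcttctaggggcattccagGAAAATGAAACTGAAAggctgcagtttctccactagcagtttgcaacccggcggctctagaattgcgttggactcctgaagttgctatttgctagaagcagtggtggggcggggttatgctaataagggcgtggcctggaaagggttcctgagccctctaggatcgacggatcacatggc
Ifitm3, chr7:141010695-141010994, minus strand: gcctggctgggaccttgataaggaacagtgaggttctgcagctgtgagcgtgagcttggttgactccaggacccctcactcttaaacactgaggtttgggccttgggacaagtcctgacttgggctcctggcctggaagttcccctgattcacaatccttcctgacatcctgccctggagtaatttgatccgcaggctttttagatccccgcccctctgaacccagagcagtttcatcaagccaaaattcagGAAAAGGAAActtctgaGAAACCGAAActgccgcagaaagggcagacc
Ifit3, chr19:34583279-34583578, plus strand: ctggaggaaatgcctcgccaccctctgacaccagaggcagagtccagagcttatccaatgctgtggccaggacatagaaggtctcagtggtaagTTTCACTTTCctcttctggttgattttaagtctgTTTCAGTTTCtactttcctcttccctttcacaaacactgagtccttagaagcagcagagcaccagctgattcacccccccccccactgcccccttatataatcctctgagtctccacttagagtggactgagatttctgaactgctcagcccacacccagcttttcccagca
Ifit3b, chr19:34607707-34608006, plus strand: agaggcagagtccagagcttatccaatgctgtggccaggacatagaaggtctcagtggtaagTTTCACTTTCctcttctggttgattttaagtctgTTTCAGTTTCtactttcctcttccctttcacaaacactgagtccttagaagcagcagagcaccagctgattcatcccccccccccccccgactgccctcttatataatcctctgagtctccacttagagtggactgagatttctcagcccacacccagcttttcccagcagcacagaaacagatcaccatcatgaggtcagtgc
Ifitm2, chr7:140955912-140956211, minus strand: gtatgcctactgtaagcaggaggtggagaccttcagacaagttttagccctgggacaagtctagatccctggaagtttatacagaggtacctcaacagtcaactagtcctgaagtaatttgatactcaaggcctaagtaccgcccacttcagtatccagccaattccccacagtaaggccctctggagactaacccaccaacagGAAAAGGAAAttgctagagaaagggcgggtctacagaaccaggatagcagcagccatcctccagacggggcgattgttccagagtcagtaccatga
Ifit1, Ifit3 and Ifit3b each hold 2 separate cores that read on the opposite strand, while the cores of Isg15 (3) and of Bst2 (2) overlap each other. In Ifitm3 the 2 cores lie just after the start, and in Ifitm2, of the same cluster, 1 core lies before it. Aligned without gaps, the Ifit3 and Ifit3b promoters share 201 of 268 bases (75.0%).

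A promoter entry was matched for 31 of the 39 members, which gave 35 promoters. An ISRE core stood in the promoter of 14 of the 31 members (45.2%), against 3.99% of 27025 genes with a promoter of this length. A match to the GAS motif TTCNNNGAA, which binds Stat dimers, stood in 7 of 31 members (22.6%), against 9.55% of all genes, and the 2 motifs overlapped in 2 member promoters. The map of matches shows where the 2 motifs lie. The cores lay from 222 bases before the start (Stat2) to 19 bases after it (Ifitm3). A match is a string of letters in this window and not a measured binding site, and promoters without one can hold the element elsewhere.

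**Figure D1:**
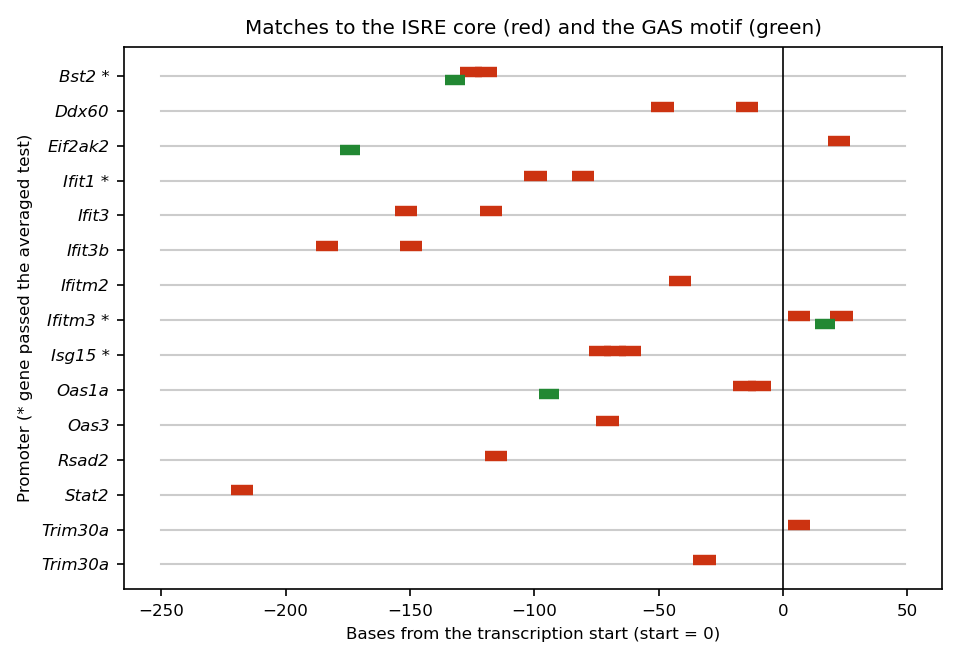
Matches to the ISRE core (red) and to the GAS motif (green) in the member promoters that hold an ISRE core, by distance in bases from the transcription start (0); each line is 1 promoter, and Trim30a has 2. Cores stand on both sides of the start, in Ifitm3 just after it and in Stat2 farthest before it.

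Libraries held 46556032 to 182545647 counts, and no 2 libraries of a group were copies of one another. The Y-linked gene Ddx3y had 4838 counts in E13.5 WT replicate 2 and 5328 in E14.5 WT replicate 7.2. It had 8241 and 14731 in E13.5 KO replicates 3 and 7, 7913 in E14.5 KO replicate 4 and at most 5 in every other heart. By these reads the sexes were mixed within each group. Cardiomyocyte markers were high in every heart (22599 to 30019 CPM, counts scaled to library size, summed over 10 genes), and endothelial markers summed to 1054 to 1365 CPM. The disrupted gene Ino80 was at 30.7 to 36.6 CPM in WT hearts and 27.0 to 31.9 CPM in KO hearts. Its averaged log2 fold change was -0.15 ± 0.06 (SE), which did not pass (adjusted p = 0.22). At E13.5 all 3 KO hearts (29.6 CPM each) lay below the 3 WT hearts, and at E14.5 KO replicate 1 (31.9 CPM) lay within the WT range. Macrophage markers, cells that respond to and can make interferon, differed between embryos. Summed over 16 genes they lay between 82.5 and 106 CPM in WT hearts. In KO hearts they lay at 35.1, 13.6 and 69.8 CPM in E13.5 replicates 3, 5 and 7 and at 23.3, 117 and 101 CPM in E14.5 replicates 2, 4 and 1. None of the 16 was at 0 in all embryos of a group. EdgeR called 0 of 16 in the averaged comparison, with 3 below 0 at an unadjusted p under 0.05 and 0 above. All 16 log2 fold changes lay below 0, with a median of -0.90 against -0.0022 over all genes. Of 5 mast cell markers tested 1 was called higher and 2 lower, and of 10 endothelial markers 1 was called higher and 1 lower. Over all genes 1.42% were called. Lymphocyte markers summed to at most 0.738 CPM over 7 genes, with Cd3e at 0 in all 12 hearts. Neutrophil markers summed to 21.7 CPM in E14.5 WT replicate 7.2 and to at most 1.32 CPM in the other 11 hearts, and 0 of the 3 tested were called. The libraries that stand apart in these values are KO replicate 5 of E13.5 and KO replicate 2 of E14.5 by their macrophage markers. WT replicate 7.2 of E14.5 does so by its neutrophil markers, and the litter 3 pair by their litter. KO replicate 1 of E14.5 also stands apart by its erythroid markers, at 41925 CPM over 8 genes against at most 18408 CPM elsewhere.

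In KO hearts 11 of the 39 members rose against WT hearts when both stages were averaged, and 0 fell (edgeR quasi-likelihood test, adjusted p under 0.05, 6 KO against 6 WT). Over all tested genes 1.42% were called in this comparison and 0.831% were called higher. The 11 were Ifit1, Ifitm3, Bst2, Isg15, Irf7, Irf9, Oasl2, Mx2, Rtp4, Parp9 and Parp14. The fold change lay above 0 for 34 of 39 members, against 49.3% of all genes. The median log2 fold change of the members was 0.58, against -0.0022 over all genes, and 14 members lay above 1, against 0.807% of genes. Over the 37 members that pass the filter on WT libraries alone, 32 lay above 0, 12 lay above 1 and the median was 0.51. In 7 members, Ifit1, Ifit3, Ifitm3, Bst2, Irf7, Oasl2 and Rtp4, the lowest of the 6 KO hearts lay above the highest of the 6 WT hearts, which held for 0.744% of all genes. RNA came from whole hearts, so more cells of a type and more RNA per cell cannot be told apart. Macrophage marker values, given above, were lower than WT in 4 KO hearts in which most members were higher, and their part in these results was not tested.

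**Figure D2:**
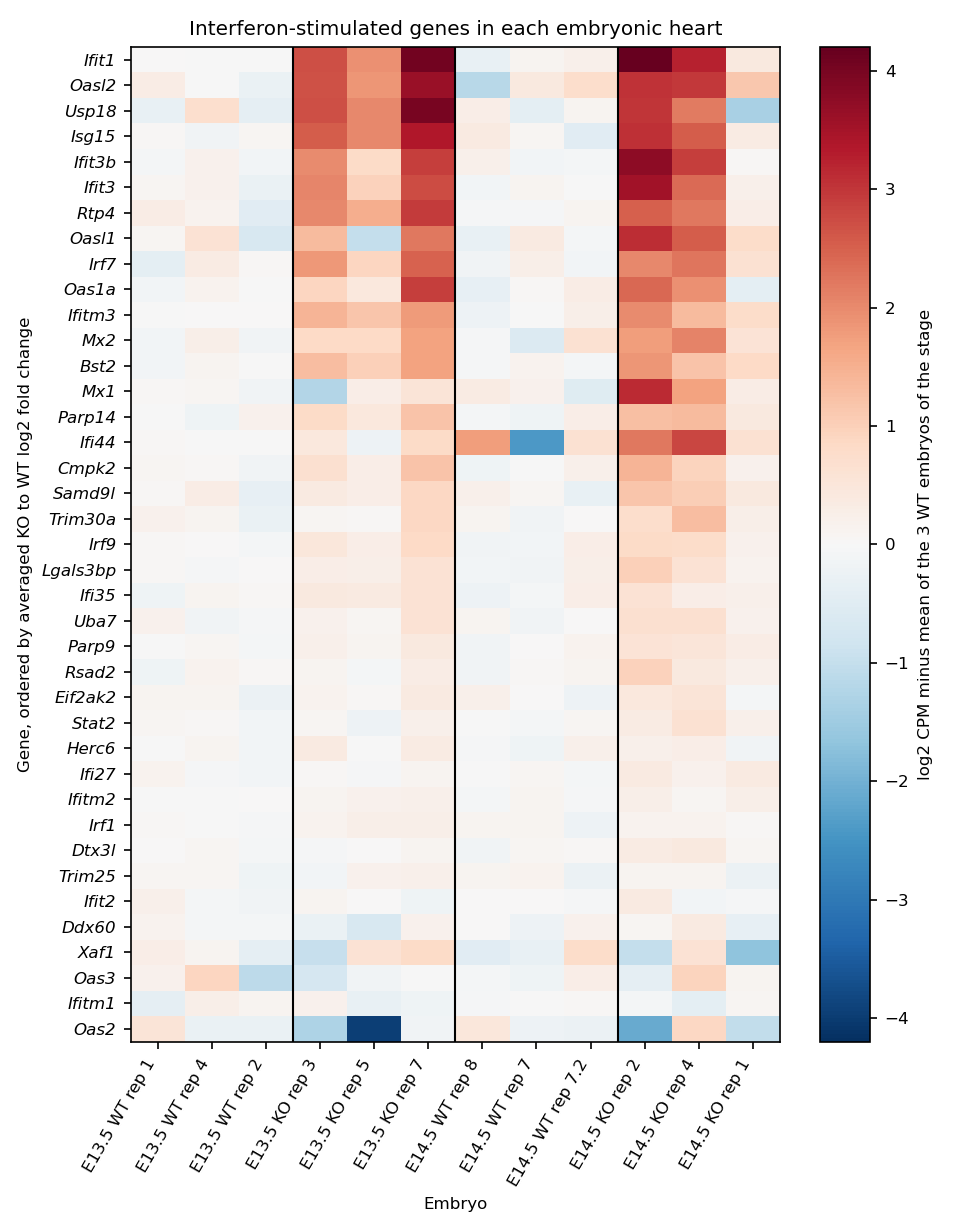
Each row is 1 of the 39 genes, each column 1 heart, and the colour is log2 CPM minus the mean of the 3 WT hearts of the same stage (red higher, blue lower; the scale runs from about -4 to 4). Black lines separate the 4 groups; red fills the upper rows of every KO column but that of E14.5 KO replicate 1, where it is paler.

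**Figure D3:**
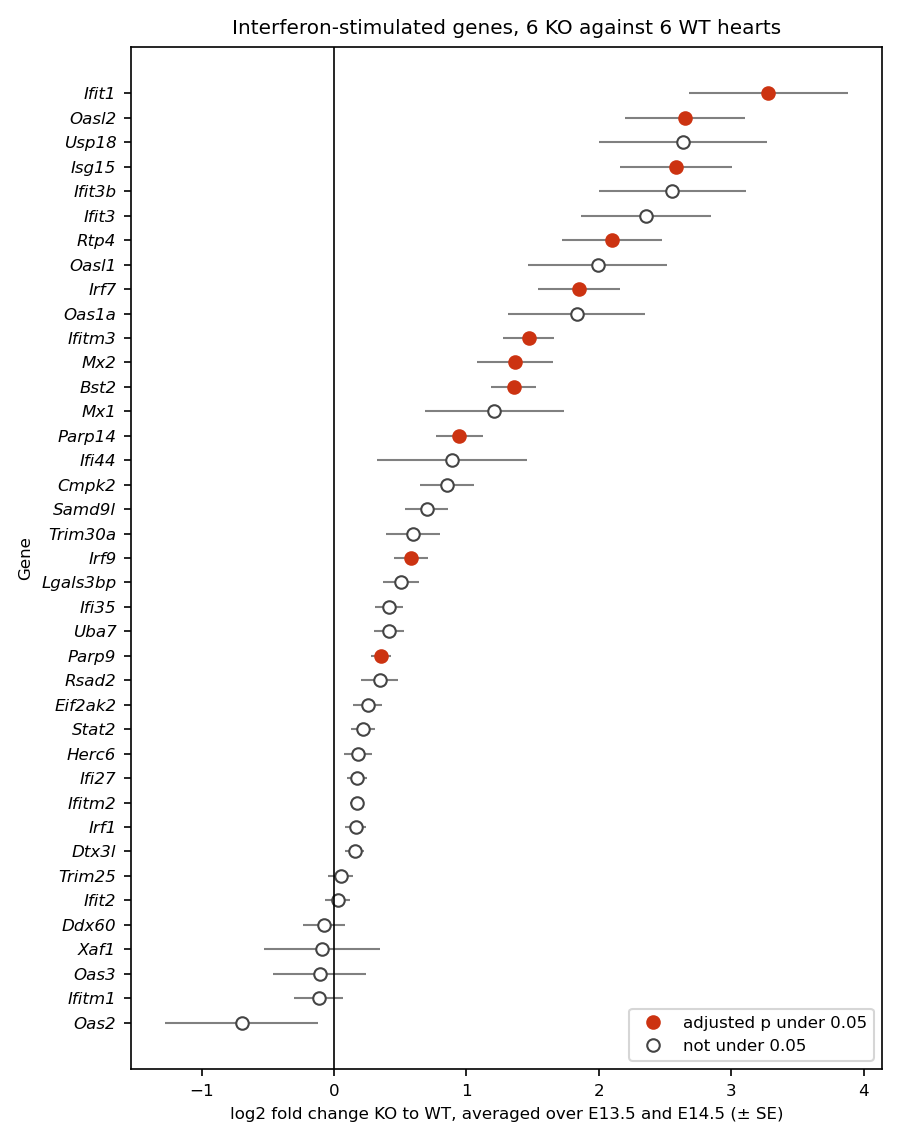
Log2 fold change from WT to KO averaged over both stages for each of the 39 genes (points), with the standard error (lines); filled points passed at an adjusted p under 0.05. The 11 filled points run from 0.36 (Parp9) to 3.28 (Ifit1), and several open points, such as Usp18, lie as far out with wider errors.

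The IFIT proteins bind foreign RNA ends and block its translation, and their genes lie side by side on chromosome 19. Ifit1 (34640871 to 34650009, GRCm38) showed the largest fold of the 39 members. At E13.5 it was at 0.335, 0.327 and 0.320 CPM in WT replicates 1, 4 and 2 and at 2.26, 1.30 and 5.76 CPM in KO replicates 3, 5 and 7. At E14.5 Ifit1 was at 0.427, 0.579 and 0.617 CPM in WT replicates 8, 7 and 7.2 and at 10.2, 5.24 and 0.723 CPM in KO replicates 2, 4 and 1. Every KO heart lay above every WT heart, but KO replicate 1 only just. On the log2 scale Ifit1 rose by 3.28 ± 0.60 (adjusted p = 0.0318), a 9.72-fold difference. In the same cluster Ifit3 (34583531 to 34588731) ran from 0.641 to 1.01 CPM in WT and reached 3.24, 1.54 and 5.32 CPM in E13.5 KO replicates 3, 5 and 7. At E14.5 Ifit3 was at 10.9, 4.95 and 1.08 CPM in KO replicates 2, 4 and 1, again with no overlap. Its log2 fold change of 2.36 ± 0.49 did not pass (0.0503), nor did that of Ifit3b, 2.55 ± 0.56 (0.0568). Reads of the Ifit3 pair are hard to assign, since 51.2% of the 50-base stretches of Ifit3 also occur in Ifit3b, so their separate values are uncertain. Ifit2 (34550694 to 34576419), the fourth of the cluster, was at 21.8 to 28.8 CPM at E13.5 and 25.2 to 35.5 CPM at E14.5 with the genotypes overlapping. Its fold change of 0.03 ± 0.09 did not pass (0.919). Per kilobase of exon Ifit2 was the most abundant of the cluster in WT hearts, at a mean of 6.67 CPM per kb against 0.49 for Ifit3 and 0.163 for Ifit1.

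The IFITM proteins sit in membranes and block virus entry, and their genes cluster on chromosome 7. Ifitm3 (141009586 to 141010770) was at 9.70, 9.83 and 9.79 CPM in E13.5 WT hearts and at 26.5, 21.8 and 34.1 CPM in KO replicates 3, 5 and 7. At E14.5 Ifitm3 was at 10.9, 12.5 and 15.1 CPM in WT replicates 8, 7 and 7.2 and at 50.6, 32.3 and 21.9 CPM in KO replicates 2, 4 and 1. The lowest KO heart thus stood well clear of the highest WT heart. Ifitm3 rose by 1.47 ± 0.19 (adjusted p = 0.0064), 2.77-fold. Ifitm2 (140954837 to 140955987), per kilobase the most abundant member at a WT mean of 101 CPM per kb, had a log2 fold change of 0.17 ± 0.05 that did not pass (0.11). At E13.5 its groups did not overlap, at 64.7 to 67.1 CPM in WT and 70.5 to 75.7 CPM in KO. Since 48.5% of its 50-base stretches occur in other genes, and 10% of those of Ifitm3, some of its reads may have been assigned elsewhere. Ifitm1 lay near 1 CPM at E14.5 in both genotypes and its change of -0.12 ± 0.18 did not pass (0.812).

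Bst2, or tetherin, holds budding virus particles at the cell surface (chromosome 8, 71534255 to 71537456). It was at 8.07, 9.47 and 8.72 CPM in the E13.5 WT hearts and at 21.5, 17.4 and 28.5 CPM in KO replicates 3, 5 and 7. At E14.5 Bst2 was at 9.06, 10.5 and 8.93 CPM in WT replicates 8, 7 and 7.2 and at 34.1, 21.7 and 16.8 CPM in KO replicates 2, 4 and 1. Bst2 had the smallest adjusted p of the members (0.0045), with a log2 fold change of 1.36 ± 0.17. In E14.5 KO replicate 1 it lay above its litter mate by 0.91 on the log2 scale, the largest upward difference among the 39 members in litter 3. None of its 50-base stretches occurs in another gene.

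**Figure D4:**
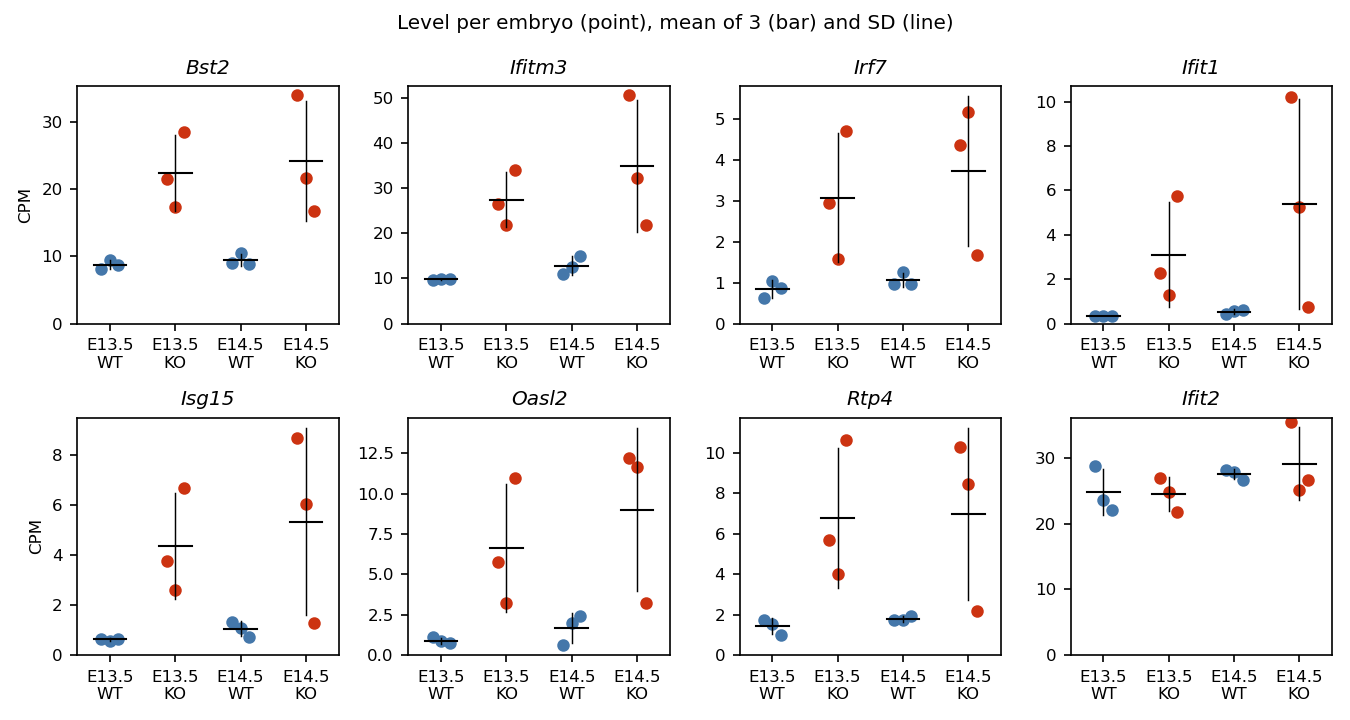
CPM of 8 members in each heart (points), with the mean of 3 hearts (bar) and the SD (line), by stage and genotype (blue WT, red KO); axes start at 0. In Bst2, Ifitm3, Irf7, Ifit1, Oasl2 and Rtp4 all red points lie above all blue points, in Isg15 E14.5 KO replicate 1 (the lowest) lies at the level of the highest WT heart, and in Ifit2 the genotypes overlap.

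Isg15 is a ubiquitin-like protein that is attached to other proteins by Uba7, Herc6 and Trim25 and removed by Usp18. Isg15 itself (chromosome 4, 156199424 to 156200818) was at 0.653, 0.564 and 0.657 CPM in the E13.5 WT hearts and at 3.77, 2.61 and 6.69 CPM in KO replicates 3, 5 and 7. The E14.5 values were 1.32, 1.08 and 0.731 CPM in WT replicates 8, 7 and 7.2, against 8.66, 6.04 and 1.28 CPM in KO replicates 2, 4 and 1. All hearts separated by genotype except KO replicate 1, which lay just under WT replicate 8. Isg15 rose by 2.58 ± 0.42 (adjusted p = 0.0163), 5.99-fold. Usp18 reached 1.92, 1.18 and 4.68 CPM in the E13.5 KO hearts against at most 0.462 in WT, and 5.04 and 2.81 CPM in E14.5 KO replicates 2 and 4. In KO replicate 1 it was at 0.221 CPM, below all 3 WT hearts of that stage (0.448 to 0.748 CPM). With that spread its fold change of 2.63 ± 0.64 did not pass (0.0819). The activating enzyme Uba7 (0.41 ± 0.11, adjusted p = 0.0969) and the ligases Herc6 (0.18 ± 0.10) and Trim25 (0.05 ± 0.09) did not pass either. Trim25 was at 39 to 57.7 CPM over all 12 hearts with no separation by genotype.

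Among the transcription factors, Irf7, which amplifies interferon production and is itself induced, rose most. Irf7 (chromosome 7, 141262706 to 141266481) was at 0.621, 1.05 and 0.865 CPM in the E13.5 WT hearts and at 2.96, 1.58 and 4.73 CPM in KO replicates 3, 5 and 7. The E14.5 values were 0.961, 1.27 and 0.974 CPM in WT replicates 8, 7 and 7.2, against 4.37, 5.17 and 1.67 CPM in KO replicates 2, 4 and 1. No WT heart reached the lowest KO heart, and Irf7 rose by 1.85 ± 0.31 (adjusted p = 0.0134). Its exons overlap those of Phrf1 on the opposite strand, and whether counting used the strand was not given in the sources used here. Irf9, the DNA-binding partner of Stat2, rose by a smaller 0.58 ± 0.13 (0.0435). Its E13.5 mean was 9.37 ± 0.43 CPM in WT and 13.7 ± 2.8 in KO, and its E14.5 mean 9.55 ± 1.65 in WT and 14.6 ± 3.3 in KO (SD, n = 3 each). Its WT replicate 7.2 (11.4 CPM) lay above KO replicate 1 (10.8 CPM) of the same litter. Stat2 (0.22 ± 0.09, 0.266) and Irf1 (0.16 ± 0.08, 0.35), a factor induced more by interferon gamma, did not pass.

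The oligoadenylate synthetases bind double-stranded RNA and make a messenger that activates RNA decay, and the OAS-like proteins are their relatives. Oasl2 (chromosome 5, 114896936 to 114912234) was at 1.09, 0.857 and 0.721 CPM in the E13.5 WT hearts and at 5.77, 3.22 and 11 CPM in KO replicates 3, 5 and 7. At E14.5 Oasl2 was at 0.641, 1.96 and 2.42 CPM in WT replicates 8, 7 and 7.2 and at 12.2, 11.6 and 3.20 CPM in KO replicates 2, 4 and 1. The genotypes did not overlap and Oasl2 rose by 2.65 ± 0.45 (adjusted p = 0.0224). The family was uneven. Oasl1 (1.99 ± 0.53, 0.0882) and Oas1a (1.83 ± 0.51, 0.114) did not pass, and 57.6% of the 50-base stretches of Oas1a also occur in Oas1b or Oas1g. Oas2 (-0.70 ± 0.58, 0.614) and Oas3 (-0.11 ± 0.35, 0.914), which lie next to each other on chromosome 5, were under 0.8 CPM in every heart. Oas2 was at 0 in E13.5 KO replicate 5.

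The Mx proteins are dynamin-like GTPases that trap viral components. Mx2 (chromosome 16, 97535308 to 97560900) was at 0.858, 1.09 and 0.833 CPM in the E13.5 WT hearts and at 1.65, 1.68 and 3.02 CPM in KO replicates 3, 5 and 7. The E14.5 values were 0.598, 0.411 and 0.991 CPM in WT replicates 8, 7 and 7.2, against 2.14, 2.73 and 0.944 CPM in KO replicates 2, 4 and 1. Only KO replicate 1 fell within the WT range of its stage, and Mx2 rose by 1.36 ± 0.29 (adjusted p = 0.0354). Mx1, its neighbour, was the weakest member per kilobase at a WT mean of 0.028 CPM per kb. It was highest in E14.5 KO replicate 2 (0.87 CPM, 56 counts) and next in KO replicate 4 (0.308 CPM), and its fold change of 1.21 ± 0.52 did not pass (0.307). Rsad2 or viperin, which makes a chain-terminating nucleotide, and Cmpk2, encoded beside it on chromosome 12, did not pass (0.35 ± 0.14, 0.273, and 0.85 ± 0.20, 0.0583). The double-stranded RNA kinase Eif2ak2, at 23.1 to 39.2 CPM in all hearts, did not pass at 0.25 ± 0.11 (0.327).

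Of the ADP-ribosylation genes encoded together on chromosome 16, Parp14 (35832874 to 35871544) and Parp9 (35938470 to 35972605) rose. The Parp14 mean at E13.5 was 3.17 ± 0.42 CPM in WT and 5.69 ± 1.55 in KO, and at E14.5 4.36 ± 0.79 in WT and 8.98 ± 2.76 in KO (SD, n = 3 each), a log2 fold change of 0.95 ± 0.18 (adjusted p = 0.0193). At each stage all 3 KO hearts lay above all 3 WT hearts for both genes. Parp9 rose by 0.36 ± 0.08 (0.0367), the smallest called change. It was at 12.0, 12.9 and 11.5 CPM in E13.5 WT replicates 1, 4 and 2 and at 14.2, 13.1 and 16.1 CPM in KO replicates 3, 5 and 7, and its E14.5 mean went from 13.2 ± 1.4 to 18.2 ± 1.7 CPM. Dtx3l, the ubiquitin ligase that pairs with Parp9 and shares exon bases with it on the opposite strand, did not pass at 0.16 ± 0.07 (0.326).

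Rtp4, a chaperone that can dampen the interferon response (chromosome 16, 23520291 to 23614222), was at 1.74, 1.53 and 0.993 CPM in the E13.5 WT hearts and at 5.71, 3.99 and 10.6 CPM in KO replicates 3, 5 and 7. At E14.5 Rtp4 was at 1.71, 1.72 and 1.95 CPM in WT replicates 8, 7 and 7.2 and at 10.3, 8.48 and 2.15 CPM in KO replicates 2, 4 and 1. Rtp4 rose by 2.10 ± 0.38 (adjusted p = 0.027) with no overlap, although KO replicate 1 exceeded its litter mate by 0.14 on the log2 scale. Of its 50-base stretches 11.6% also occur in the overlapping transcript Gm45338. Samd9l (0.70 ± 0.16, 0.0592), Trim30a (0.60 ± 0.20, 0.176), Lgals3bp (0.51 ± 0.13, 0.0845) and Ifi35 (0.42 ± 0.11, 0.0825) did not pass. Ifi27 (0.17 ± 0.08) and the RNA sensor helper Ddx60 (-0.08 ± 0.16) did not pass either. Ifi44 varied widely within WT: at E14.5 it stood at 8.76, 0.467 and 4.01 CPM in WT replicates 8, 7 and 7.2, so that its 0.89 ± 0.57 (0.506) has a wide error. Xaf1, a proapoptotic partner of XIAP, was irregular in both genotypes, from 1.61 to 8.95 CPM at E14.5 (-0.09 ± 0.44, 0.948).

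How far the 11 calls rest on single libraries was examined by leaving out each of the 12 in turn. Bst2 (adjusted p at most 0.0202), Ifitm3 (at most 0.0284) and Irf7 (at most 0.048) passed in all 12 fits. Parp14 did not pass in the fits that left out E13.5 WT replicate 1 or 4, KO replicate 2 of E14.5 or WT replicate 7 of E14.5 (0.0546 to 0.0666). Isg15 lost it without any E13.5 WT heart or without E14.5 WT replicate 7 or 7.2 (0.0529 to 0.0642), and Oasl2 without any E13.5 WT heart and, at E14.5, without KO replicate 2 or WT replicate 7 (0.0593 to 0.0816). Ifit1 lost its call without any single WT heart or without E13.5 KO replicate 3 or 7 (0.0539 to 0.103). Rtp4 lost its call without any single WT heart, KO replicate 3 of E13.5 or KO replicate 2 of E14.5 (0.0528 to 0.083). Irf9 and Parp9 passed in 3 fits each, those without KO replicate 5 of E13.5 or without either litter 3 heart, WT replicate 7.2 or KO replicate 1, and reached 0.112 and 0.0928 otherwise. Mx2 passed in 2 fits, those without either litter 3 heart, and lay between 0.0523 and 0.0931 in the others. The calls over all genes, 293 in the main fit, moved as well and are given in brackets. The number of members called was 3 without E13.5 WT replicate 1 (151), E13.5 WT replicate 4 (125) or WT replicate 7 of E14.5 (190). It was 4 without E13.5 WT replicate 2 (204). Leaving out E14.5 KO replicate 2 kept 5 members (166). Dropping KO replicate 3 of E13.5 kept 6 (163), as did dropping WT replicate 8 of E14.5 (254). With KO replicate 7 of E13.5 left out 7 members passed (162), and with KO replicate 5 left out 11 did (145). At E14.5, dropping KO replicate 4 gave 8 members (444) and dropping WT replicate 7.2 gave 9 (198). With KO replicate 1 of E14.5 left out 20 members passed, and the calls over all genes rose too (483). No fold change of the 11 changed sign in the 220 pairs of a gene and an alternative. The 11 were chosen by the main fit and the alternatives reuse its libraries, so a change of sign was unlikely from the start. Litter as a block, taken from the labels, also called 11 (398 of all genes): Irf9 no longer passed (0.0533) and Samd9l did (0.0168). Without the filter on low counts 8 passed (334 of all genes), and Ifit1, Oasl2 and Rtp4 did not. Without litter 3 edgeR called 18 (333 of all genes), all 11 among them. Without the 2 KO hearts lowest in macrophage markers (replicate 5 of E13.5, replicate 2 of E14.5) edgeR called 4 (63 of all genes). The 4 were Ifitm3, Bst2, Isg15 and Irf7.

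At E13.5 alone most members lay above WT but none passed. The fold change was above 0 for 34 of 39 (50.4% of all genes), with a median of 0.40 against 0.0018 over all genes, and 13 members lay above 1 (1.62% of genes). EdgeR called 0 of 39 members at an adjusted p under 0.05 (0.106% of all genes, 0.0193% upwards). An unadjusted edgeR p under 0.05 upwards was found in 19 members (4.70% of genes). DESeq2 called 9 members and 310 of all genes. In 20 members all 3 KO hearts lay above all 3 WT hearts, against 8.44% of genes, among them all 11 genes called in the averaged comparison. Over the 37 members that pass the filter on WT libraries alone, 32 lay above 0, 12 above 1 and 20 did not overlap upwards. Bst2 (1.36 ± 0.24, adjusted p = 0.0749) and Ifitm3 (1.5 ± 0.27, 0.106) came nearest. All 6 hearts share litter 1. With litter as a block in the fit over all libraries Isg15 (0.0217) and Bst2 (0.0365) passed, among 60 of all genes. A fit to the 6 E13.5 libraries called 95 of all genes and 3 members, Isg15, Ifitm3 and Bst2. Without E14.5 KO replicate 1, which is not in this contrast but enters the shared estimate of spread, 7 passed (69 of all genes). Without E14.5 KO replicate 2 the number was 2 (62 of all genes).

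At E14.5 alone the folds were of similar size and again none passed. The fold change was above 0 for 35 of 39 (48.1% of all genes), with a median of 0.62 against -0.0071 over all genes, and 16 members lay above 1 (1.55% of genes). EdgeR called 0 of 39 (0.222% of all genes, 0.145% upwards), and 28 had an unadjusted p under 0.05 upwards (5.42% of genes). DESeq2 called 13 members and 348 of all genes. In 16 members the groups did not overlap upwards, against 6.81% of genes. Stat2, Oasl1, Rsad2, Ifi27, Trim30a, Samd9l and Uba7 were among these 16 and not among the 20 at E13.5. Of these Oasl1 entered the test through the KO libraries. Over the 37 members that pass the filter on WT libraries alone, 33 lay above 0, 14 above 1 and 15 did not overlap upwards. Of the same 37, 26 had an unadjusted edgeR p under 0.05 upwards, and the median was 0.61. Bst2 (1.35 ± 0.24, adjusted p = 0.0626) and Ifitm3 (1.44 ± 0.27, 0.0732) again came nearest. Without E14.5 KO replicate 1 edgeR called 107 of all genes and 9 members, Ifit1, Ifit3, Ifit3b, Isg15, Ifitm3, Irf7, Bst2, Rtp4 and Parp14. Litter as a block called 92 of all genes and 1 member, Bst2 (0.0357).

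The averaged and single-stage comparisons share their hearts, so they do not support one another. The change of the KO effect from E13.5 to E14.5 was tested as an interaction, and edgeR called 0 of 39 members, as over all genes (0%). The median interaction of the members was 0.15, with 25 of 39 above 0 (48.6% of all genes), and 1 member had an unadjusted p under 0.05 upwards (2.32% of genes). DESeq2 called 0 members (2 of all genes). The 1 member with an unadjusted edgeR p under 0.05 was Mx1 (2.31 ± 1.05, unadjusted p = 0.0461), which had 3 to 56 counts per library. The error of the interaction differed between members: it was 0.05 ± 1.21 for Ifit1 and -0.45 ± 0.81 for Isg15, but -0.02 ± 0.34 for Bst2 and -0.05 ± 0.38 for Ifitm3.

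In these genes the KO hearts differed more from one another than the WT hearts did. The median log2 difference of the 39 members from the WT mean of the stage was 0.37, 0.26 and 0.81 in E13.5 KO replicates 3, 5 and 7. Among E14.5 hearts the medians were 0.98, 0.92 and 0.21 in KO replicates 2, 4 and 1. The 6 WT hearts lay between -0.099 and 0.094. E13.5 KO replicate 7 was the highest of its group in 35 of 39 members, and replicate 5 the lowest in 30. At E14.5 KO replicate 1 was the lowest in 33 of 39 members, while replicate 2 was highest in 23 and replicate 4 in 14. More than 1 log2 unit above the WT mean lay 11, 6 and 15 members in the E13.5 KO hearts and 19, 18 and 1 in the E14.5 KO hearts, in the same order of replicates. In KO replicate 1 of E14.5 that member was Oasl2. Of all genes 1.51%, 4.79% and 4.59% lay as far above in the E13.5 KO hearts. In the E14.5 KO hearts 2.40%, 2.69% and 2.51% did, so 1 of 39 in replicate 1 was near the share of all genes. The median ratio of the highest to the lowest heart within a group was 1.67 among E13.5 KO and 2.03 among E14.5 KO hearts for the members, against 1.17 and 1.25 for all genes. Among WT hearts it was 1.21 and 1.32 for the members, against 1.19 and 1.22 for all genes. For the 11 called genes all 6 KO hearts lay above the WT mean of their stage in each gene. The median fold of the 11 was 2.71, 1.98 and 3.48 in E13.5 KO replicates 3, 5 and 7 and 3.98, 4.25 and 1.34 in E14.5 KO replicates 2, 4 and 1, but these genes were chosen by that comparison.

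Within litters, which hold both genotypes, the median log2 difference of the members was 0.34 in litter 1 (3 KO and 3 WT hearts), 0.93 in litter 2 (2 and 2) and 0.13 in litter 3 (1 and 1). The fold lay above 0 for 33, 36 and 26 of 39 members in these litters, against 50.5%, 49.2% and 49.5% of all genes. It lay above 1 for 12, 18 and 0 members, against 1.33%, 2.01% and 3.79% of all genes. In litter 3 KO replicate 1 exceeded WT replicate 7.2 by 0.91 for Bst2, 0.79 for Isg15, 0.76 for Irf7 and 0.54 for Ifitm3. It lay below it for 13 members, by the most for Xaf1 (-2.46), Usp18 (-1.5), Oas2 (-0.76) and Oas1a (-0.71). Of the 11 called genes Irf9 (-0.08) and Mx2 (-0.07) lay below. With 1 heart of each genotype the litter 3 differences have no replicate check. The pair also differed in the Y-linked gene Ddx3y, at 5328 counts in WT replicate 7.2 and 0 in KO replicate 1.

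Macrophage markers and the members ranked the KO hearts alike at E13.5 and unlike at E14.5. The KO heart with the highest median at E14.5, replicate 2, had 23.3 CPM of macrophage markers, and replicate 4, with nearly the same median, had 117 CPM. E13.5 KO replicate 7 had both the highest median of its group and the highest macrophage sum (69.8 CPM), and replicate 5 the lowest of both (13.6 CPM). E14.5 KO replicate 1, with the lowest median of its group, had 101 CPM, and it also had the highest sum of 8 erythroid markers, 41925 CPM against 4785 to 18408 CPM in the other 11 hearts. Any part of these cells in the result was not tested. The share of all counts that fell on the 39 members was 0.0320% ± 0.0020 in E13.5 WT, 0.0422% ± 0.0070 in E13.5 KO, 0.0333% ± 0.00086 in E14.5 WT and 0.0481% ± 0.012 in E14.5 KO hearts (SD, n = 3 each).

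**Figure D5:**
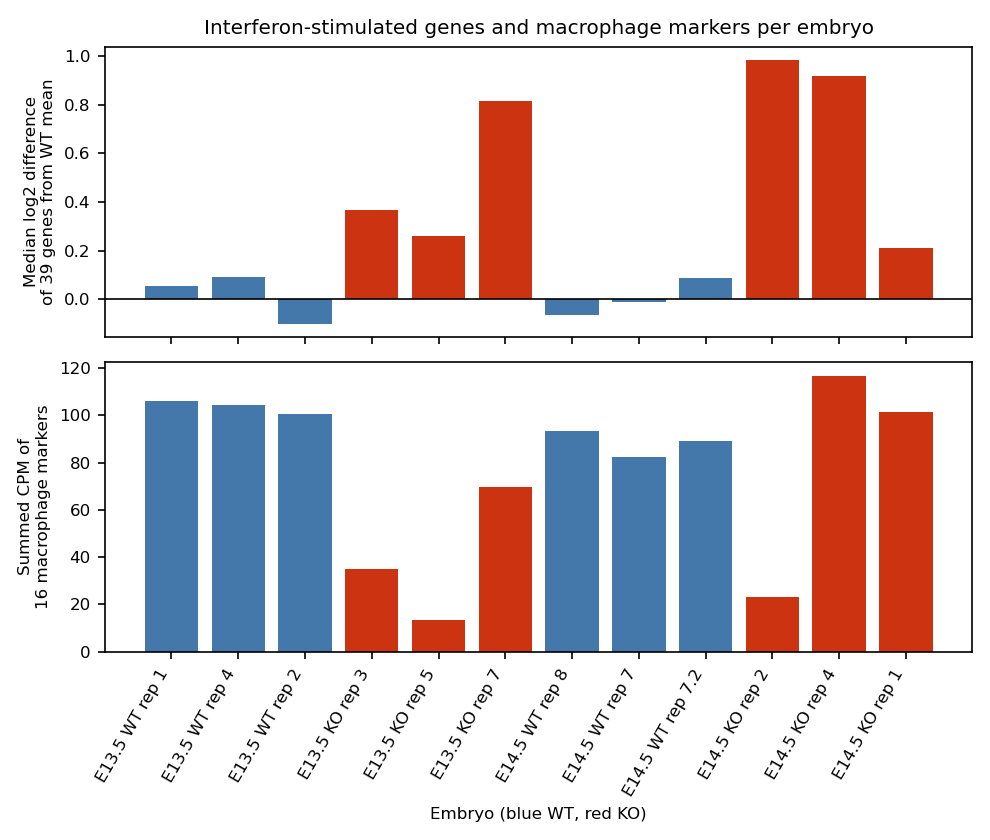
Upper bars give the median log2 difference of the 39 genes from the WT mean of the stage in each heart, lower bars the summed CPM of 16 macrophage markers (blue WT, red KO). E14.5 KO replicates 2 and 4 have like upper bars (0.98 and 0.92) and unlike lower bars (23.3 and 117 CPM).

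Between E13.5 and E14.5 few members were called, in WT hearts at a share near that of all genes. In WT hearts Rsad2 alone rose (1 of 39 members, with 4.04% of all genes called and 2.08% of all genes called upwards), from 2.35 ± 0.26 to 4.04 ± 0.38 CPM (log2 fold change 0.79 ± 0.20, adjusted p = 0.0473). That call was lost in 9 of the 12 fits with a library left out, with an adjusted p of up to 0.187, and held without E14.5 KO replicate 2, 4 or 1. In KO hearts 4 of 39 rose (3.74% of all genes called, 2.11% upwards). Rsad2 rose by 1.23 ± 0.20 (adjusted p = 0.012), with 2.54, 2.21 and 2.89 CPM in E13.5 KO replicates 3, 5 and 7 and 7.99, 5.31 and 4.68 CPM in E14.5 KO replicates 2, 4 and 1. Samd9l (1.00 ± 0.23, 0.0383), Lgals3bp (0.76 ± 0.19, 0.0426) and Dtx3l (0.52 ± 0.10, 0.0199) rose as well. None of the 11 genes called between genotypes passed between stages in either genotype. The median stage change of the members was 0.24 in WT and 0.28 in KO hearts, against 0.0035 and 0.0036 over all genes. It lay above 0 for 31 of 39 members in WT and 33 of 39 in KO hearts, so members without a call may still have changed. Without E13.5 KO replicate 3, 5 or 7 only Rsad2 passed in KO (116, 141 and 66 of all genes). Without the 2 KO hearts lowest in macrophage markers 0 members passed (130 of all genes). These calls compare litter 1 with litters 2 and 3 as much as they compare stages.

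Upstream of the response lie the ligands, the receptor and its transducers. Of 21 interferon genes 0 passed the filter on low counts. Over all 12 hearts Ifnb1 had 2 counts and Ifng 10, and Ifnz, with 115, was the only ligand read in every heart (51 counts in WT and 64 in KO). Ifnar1 (-0.02 ± 0.04, adjusted p = 0.811) and Ifnar2 (0.05 ± 0.05, 0.687), the receptor chains, did not pass. Stat3, a transducer shared with other cytokines, rose by 0.20 ± 0.05 (0.0477), and its call held in 1 of 12 fits with a library left out (up to 0.134 otherwise).

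Of 17 tested genes that sense nucleic acid or relay that signal 3 rose and 0 fell, against 0.831% of all genes called higher, and their median was 0.020. Ifih1, which encodes the RNA sensor MDA5, rose by 1.39 ± 0.23 (adjusted p = 0.0114) and passed in all 12 fits with a library left out. It was at 1.51 to 2.32 CPM over the 6 WT hearts and at 4.06, 3.30 and 5.32 CPM in E13.5 KO replicates 3, 5 and 7. In E14.5 KO replicates 2, 4 and 1 Ifih1 was at 8.75, 7.38 and 3.13 CPM, the same order as in most members. Ddx58, which encodes RIG-I, rose by 0.76 ± 0.14 (0.027) and Tlr3, a sensor of endosomal RNA, by 0.51 ± 0.10 (0.0332). Both passed in 3 of 12 fits with a library left out, with values up to 0.0852 and 0.101 otherwise. Whether the rise of these 3 sensor genes came before, with or after that of the members was not tested. Of 12 negative regulators, which include the Socs genes, Trex1 and Adar, edgeR called 0, with 1 above and 1 below 0 at an unadjusted p under 0.05.

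Of 51 other tested interferon-induced genes 6 rose and 0 fell, against 0.831% of all genes called higher. Above 0 lay 43 of 51 (49.3% of all genes), and the median was 0.38 against -0.0022 over all genes. The 4 called genes with the smallest p are described, and the other 2 were Gbp3 and Gbp7. Shisa5, a p53- and interferon-responsive membrane protein, rose by 0.43 ± 0.05 (adjusted p = 0.00068), from 25.7 to 32.6 CPM over the 6 WT hearts to 36.4 to 41.5 CPM over the 6 KO hearts. Lgals9, a galectin, rose by 0.93 ± 0.11 (0.0031), with 30.9 to 36.1 CPM in WT and 46.9 to 78.8 CPM in KO. Helz2, a helicase, rose by 0.68 ± 0.09 (0.0037) and Parp10 by 0.44 ± 0.08 (0.0196). Shisa5, Lgals9 and Helz2 passed in all 12 fits with a library left out and their genotypes did not overlap. Parp10 lost its call in 4 of 12, those without E13.5 WT replicate 1 or 4 or KO replicate 5 or 7 of E13.5 (0.0516 to 0.0666). Shisa5 and Lgals9 were also called at E14.5 alone (adjusted p = 0.00465 and 0.0271), where no member of the 39 was. E14.5 KO replicate 1, the lowest of its group in 33 of 39 members, was at 38.8 CPM of Shisa5. This was close to the 39.9 and 41.5 CPM of KO replicates 2 and 4.

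The members that carry an ISRE core in the printed window were found at both ends of the ranking. Of the 7 called members with a promoter entry 4 held a core, namely Bst2, Ifit1, Ifitm3 and Isg15, and of the 24 not called 10 did. Irf7 and Oasl2, both called, held no core in this window, while Ddx60, with 2 cores, had a fold change of -0.08 and Oas3, with 1, of -0.11.

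Some genes outside all lists followed the same heart-to-heart pattern. Over the 12 hearts, and among 12531 genes that averaged 1 CPM or more, the log2 CPM of Mitd1 had the highest Pearson correlation with the mean of the members (r = 0.96, rho = 0.95), followed by Stim2 (0.91), Gbp10 (0.91), Tgoln1 (0.91) and Mob1a (0.90). The genotype groups contribute to these values, the hearts share litters and libraries, and the genes were picked as the top of the ranking, so they are a description. Mitd1 was at 6.86, 6.36 and 7.84 CPM in E13.5 KO replicates 3, 5 and 7 and at 9.03, 8.23 and 5.80 CPM in E14.5 KO replicates 2, 4 and 1, against 4.68 to 6.04 CPM in WT. Of the 10 highest only Gbp9, an interferon-induced GTPase, passed in the averaged comparison (0.63 ± 0.12, adjusted p = 0.0211), and it lost the call in 7 of 12 fits with a library left out (up to 0.066).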

How the data were processed

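RNA from 12 whole embryonic hearts was sequenced by the submitters. Per the submitters' processing notes STAR 2.5.3a, featureCounts, DESeq and DESeq2 were used with GRCm38. No source used here gives the strand or multimapping settings of the counting. Values are whole-number read counts per gene, unnormalised, as the authors deposited them, and samples were grouped by their titles. Depth was 46556032 to 182545647 counts, and Ifit1 had 20 to 1049 counts a library.

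Counts were tested with edgeR 4.0.16 (TMM, filterByExpr on the 4 groups, robust quasi-likelihood F-test, 1 fit over all 12 libraries) in R 4.3.3, with Benjamini-Hochberg adjustment over all 20691 genes and a threshold of 0.05. Standard errors were taken as |log2 fold change| over root F, with 8 residual degrees of freedom. CPM used TMM library sizes, and log2 CPM a prior count of 2. The fit was tested on simulated data with the same spread for every gene and, for a changed gene, the same shift in every KO heart. The members varied more between KO hearts than that, so the simulation does not cover them. DESeq2 1.42.0, other normalization and filtering, litter as a block, a covariate and left-out libraries were tried as alternatives. The members and gene lists were chosen with earlier results of these data known. All 39 members are named. Other named genes were called ones of the fixed lists and the 10 genes most correlated with the members. Gene positions are from GENCODE M21 (GRCm38) and promoters from RefSeq (GRCm38.p6). The litters, from the labels, pair the genotypes, and residual correlations of WT with KO hearts ran from -0.0996 to 0.0625 within litters and from -0.0721 to 0.0606 between them. A result on the receptor and transducer genes is not reported here.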

Additional observations from a re-analysis of the deposited data

How the results depend on the processing

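With DESeq2 22 members were called in the averaged comparison, 9 at E13.5, 13 at E14.5 and 2 between stages in WT, and of all genes 926 averaged, 310 at E13.5, 348 at E14.5, 2 for the interaction, 2140 between stages in WT and 1822 in KO. With litter as a replicate block, a pairing of genotypes within litters, edgeR called 2 members at E13.5, 1 at E14.5 and 0 between stages in WT, and of all genes 60 at E13.5, 92 at E14.5, 299 between stages in WT and 332 in KO. Fitting only the libraries compared gave 3 members at E13.5 and 1 between stages in KO, and 95, 2 and 289 of all genes at E13.5, E14.5 and between stages in KO. With Y-linked expression as a covariate 1 member passed at E14.5, 0 between stages in WT and 2 in KO. Of all genes 9 passed at E13.5, 59 at E14.5, 611 between stages in WT and 396 in KO. Without a filter on low counts 8 members passed averaged (Ifit1, Oasl2 and Rtp4 did not) and 3 between stages in KO (Samd9l did not). Of all genes 334 passed averaged, 40 at E13.5, 77 at E14.5 and 692 between stages in KO. Without robust estimation, chosen after seeing the data, 14 members passed averaged, 2 at E14.5 and 0 between stages in WT. Of all genes 322 passed averaged, 50 at E14.5 and 766 between stages in WT. Without litter 3 the members called were 18 averaged, 4 at E13.5, 5 at E14.5 and 0 between stages in WT. Of all genes 333 passed averaged, 71 at E13.5, 61 at E14.5 and 95 between stages in WT. Without the KO hearts lowest in macrophage markers (replicate 5 of E13.5, replicate 2 of E14.5) the members called were 4 averaged, 2 at E13.5, 1 at E14.5 and 0 between stages in KO. Of all genes 63 passed averaged, 29 at E13.5, 10 at E14.5, 474 between stages in WT and 130 in KO. Leaving out 1 library at a time gave 3 to 20 members averaged (all genes 125 to 483, median of members 0.44 to 0.67), 0 to 7 at E13.5 (2 to 69, 0.19 to 0.51) and 0 to 9 at E14.5 (10 to 107, 0.58 to 0.81). It gave 0 for the interaction (0 of all genes, median -0.048 to 0.36), 0 to 1 between stages in WT (8 to 1081, 0.12 to 0.29) and 1 to 4 in KO (66 to 1076, with 912 without KO replicate 4 of E14.5, 0.090 to 0.58). The cause of these changes was not tested. Depth differs between members: Mx1 had 3 to 56 counts a library and Oasl1 3 to 134.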
